A study of Mus musculus with 2 samples.

Results

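The 38 genes of the HoxA, HoxB, HoxC and HoxD clusters described here were taken by name from a microarray comparison of mDE6 cells, out of 37074 gene names carried by the arrays. They comprised 10 genes of HoxA, 10 of HoxB, 9 of HoxC and 9 of HoxD, and they were read by 51 probes, with 1 probe for 28 genes and more than 1 for the other 10. Cluster genes not on this list were not analysed here, so that paralogue counts refer to the listed genes only. Hox genes encode homeodomain transcription factors that give cells along the body axis their positional identity. They lie in 4 clusters in which the order on the chromosome follows the order of expression along the axis, so that genes with low paralogue numbers act in the hindbrain and neck and genes with high numbers in the trunk, limb and tail. The first pharyngeal arch, whose neural crest gives rise to the dental mesenchyme, is known as a territory without Hox expression, and Hoxa2 marks the neighbouring second arch. Retinoic acid and Wnt signals open the clusters, and Polycomb complexes keep them shut.

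One array held RNA of mDE6 cells given the DMSO vehicle and the other RNA of mDE6 cells given CHIR99021, each after 6 h. CHIR99021 is an inhibitor of GSK-3 and so activates the β-catenin pathway, and the comparison asked which transcripts follow that activation. The label of the treated sample gives the dose as 5 mM, the methods give 5 μM and describe the control as untreated. With 1 array for each condition there was no replicate error and no test, and the values below are levels and ratios of these 2 arrays. The 2 arrays were side by side on 1 slide, and the place on the slide and the condition cannot be told apart.

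The cells are labelled as mouse odontogenic epithelial cells, and their markers went against that label in part. Cdh1, Epcam and Krt8, which define epithelial cells, were not well above background on either array, whereas Krt14 and Trp63 were on both, Krt18 on the control array only and Krt5 on the CHIR99021 array only, at an uneven spot. All 6 mesenchymal markers (Vim, Col1a1, Col1a2, Pdgfra, Prrx1 and Twist1) were well above background on both arrays, among them Col1a2, a chain of type I collagen, with signals of 270800 on the control and 242600 on the CHIR99021 array, Col1a1 (122700 and 116200) and Vim (52300 and 45880). The enamel genes Amelx, Ambn and Enam were not well above background on either array. Of the blood and vessel markers, Ptprc had 1709 and 1764 at the 1 detected of its 7 probes and Pecam1 had 29.9 on the control array only. The line is therefore called mDE6 cells here. A bulk array cannot tell fewer cells expressing a gene from less RNA in each cell.

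The probe of Hoxc11 is shown because it had the largest computed increase among the Hox probes. It is printed 5′ to 3′, with the 7 codons for tryptophan, phenylalanine, glutamine, asparagine, arginine, arginine and methionine at the core of the third helix of the homeodomain, which contacts DNA, in capitals. The core was looked for after the value of the probe had been seen, and binding of other transcripts to it was not tested.
Hoxc11, A_66_P109273, mm9 chr15:102787015-102787074, plus strand: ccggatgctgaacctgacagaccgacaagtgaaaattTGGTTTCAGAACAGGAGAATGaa

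Most of the Hox genes were not detected. A probe was counted as detected where the image analysis software called its spot well above the background of the array. The control array detected 11 of the 51 Hox probes, or 21.6%, against 47.7% of all probes, and the CHIR99021 array again 11, against 46.1% of all probes. By gene, each at the probe with the highest mean signal, 8 of 38 were detected in control and 9 in treated cells. Of these, 7 were detected on both arrays, 1 on the control array only and 2 on the CHIR99021 array only. The remaining 28 genes had no detected probe on either array. With uneven spots left out, the counts were 9 in control and 8 in treated cells. With Hoxb3 read at its next probe they were 9 and 9, so that the order of the 2 arrays was not stable.

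**Figure D1:**
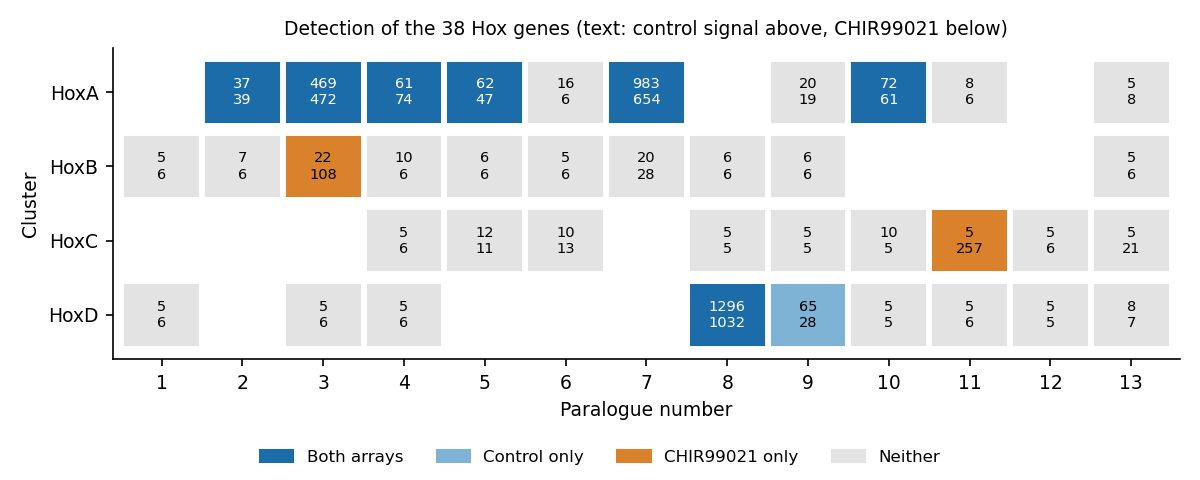
Detection of each Hox gene by cluster (vertical axis) and paralogue number (horizontal axis) at its probe with the highest mean signal, with the colour giving the arrays on which it was well above background and the numbers giving the background-subtracted signal in arbitrary units (control above, CHIR99021 below). Blank cells hold no gene of the list; the 7 dark blue cells are 6 HoxA genes and Hoxd8.

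Detection was uneven between the clusters. HoxA had 6 of its 10 listed genes on the control array, namely Hoxa2, Hoxa3, Hoxa4, Hoxa5, Hoxa7 and Hoxa10, and the same 6 on the CHIR99021 array. HoxD had 2 of 9 on the control array, Hoxd8 and Hoxd9, and 1 of 9 on the CHIR99021 array, Hoxd8. HoxB had none of 10 on the control array at the highest-signal probes, while Hoxb3 was detected on that array at its 2 other probes. HoxC had none of 9 on the control array. By paralogue number, at the highest-signal probes, 1 gene each was detected on the control array in groups 2, 3, 4, 5, 7, 8, 9 and 10, and none in groups 1, 6, 11, 12 and 13. With any probe counted, group 3 had 2 genes, Hoxa3 and Hoxb3.

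The 38 Hox probes detected on neither array, among them further probes of Hoxa3 and Hoxa10, had signals between 4.69 and 24.3 on the control array, where the lowest spot called well above background had 23.7, and between 5.26 and 28.0 on the CHIR99021 array, where that spot had 26.3. On the control array the highest of these belonged to HoxA and HoxB. Hoxa9, a trunk gene of the AbdB class read by 3 probes, had 20.0 and 19.4 at its highest probe on the control and CHIR99021 arrays. Hoxb7 had 20.1 and 28.0, Hoxa6 had 16.1 and 6.09, and a second probe of Hoxa3 had 24.3 and 20.1. In HoxC the undetected control signals ran only from 4.69 to 12.1 and in HoxD from 4.85 to 8.05. Under a looser call, a signal positive and significantly different from background, 19 of 38 genes passed on the control array, and 24 of the 51 Hox probes (47.1%) against 64.5% of all probes. The 11 added by it were Hoxa6, Hoxa9, Hoxa11, Hoxb2, Hoxb3, Hoxb4, Hoxb7, Hoxc5, Hoxc6, Hoxc10 and Hoxd13, none of them above 21.9.

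No ratio is given for a gene detected on neither array at its highest-signal probe. The genes in this position were Hoxa6, Hoxa9, Hoxa11 and Hoxa13 of HoxA, Hoxb1, Hoxb2, Hoxb4, Hoxb5, Hoxb6, Hoxb7, Hoxb8, Hoxb9 and Hoxb13 of HoxB, Hoxc4, Hoxc5, Hoxc6, Hoxc8, Hoxc9, Hoxc10, Hoxc12 and Hoxc13 of HoxC, and Hoxd1, Hoxd3, Hoxd4, Hoxd10, Hoxd11, Hoxd12 and Hoxd13 of HoxD. They included Hoxb1, the rhombomere 4 gene of the hindbrain, and all listed genes of paralogue groups 12 and 13, among them Hoxa13 and Hoxd13, which pattern the digits and the genital tubercle.

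None of the Hox genes measured on both arrays met the criteria for a change. Ratios are CHIR99021 over control, with each array's signal divided by its 75th percentile, which was 486.7 for the control array and 469.17 for the CHIR99021 array. Between spots of the same probe the median SD of the log2 ratio was 0.03. It was taken over 264 probes with at least 9 usable spots, well above background at every spot on both arrays. For such probes it is a measure of printing and reading error within an array and not of differences between cultures. It does not give the error at dimmer probes. The median log2 ratio of the 7 genes was -0.20, a ratio of 0.872, beside 0.04 for the 25025 probes measured on both arrays. With normexp, a model-based background correction, this median was -0.07. Its sign depended on the genes included, at 0.06 over the earlier rows of the array alone (up to row 192) and 0.19 with undetected genes included. Of the 7, 4 had ratios below 1 and 3 above 1, within 0.690 to 1.27. A gene was counted as lower where its ratio did not exceed 0.66 and its Z-score did not exceed -2, and as higher from a ratio of 1.5 together with a Z-score of 2. The Z-score sets the log2 ratio against those of the 500 probes closest in mean signal. Among all 28066 tested probes 2.72% were lower and 2.35% higher, and of the 13 Hox probes that could be tested 0 were lower and 2 higher. The other 38 Hox probes, and with them 28 of the 38 genes, were not tested. For both of the latter, Hoxb3 and Hoxc11, the control spot was not called well above background.

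**Figure D2:**
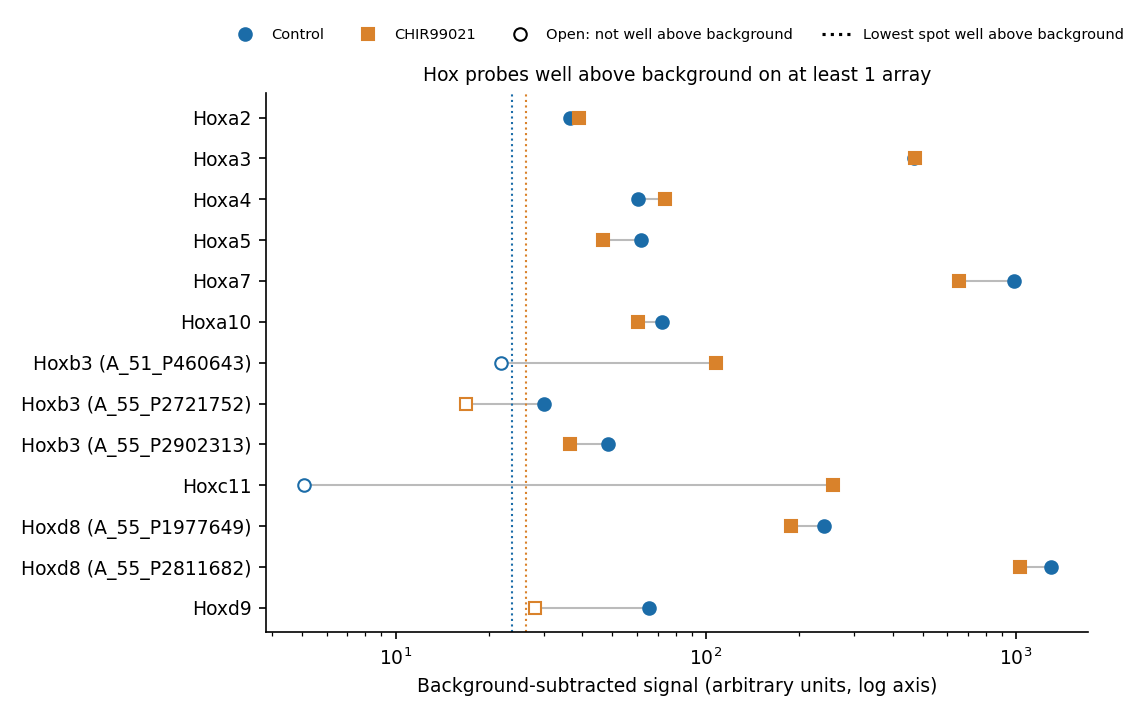
Background-subtracted signal (horizontal log axis, arbitrary units, before scaling) of the 13 Hox probes detected on 1 or both arrays, with circles for the control and squares for the CHIR99021 array. Open symbols were not well above background and dotted lines give the lowest detected spot of each array; the widest gaps are those of Hoxc11 (5.05 and 257.3) and of 1 of the 3 Hoxb3 probes (21.9 and 107.7).

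The HoxA genes of low paralogue number had ratios slightly above 1. Hoxa2, which specifies the second arch, had signals of 36.6 on the control and 38.9 on the CHIR99021 array, a ratio of 1.10. Hoxa3, needed for the third arch, thymus and parathyroid, had 469 and 471.9, a ratio of 1.04, at the 1 detected of its 3 probes. Hoxa4, a neck gene, had 60.6 and 74.0, a ratio of 1.27. In the neighbourhood of such dim probes the log2 ratios of other probes had an SD of 1.77 for Hoxa2 and 0.96 for Hoxa4, so that both Z-scores were small, 0.11 and 0.42. In the RefSeq annotation the span of Hoxa3 contains Hoxa4, Hoxa5 and Hoxa6, so that transcripts running across these genes could add to each other's signals.

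Hoxa5, Hoxa7 and Hoxa10 had ratios below 1, none of them meeting the criteria. Hoxa5, which acts in the lung and the cervical vertebrae, had signals of 61.7 and 46.6, a ratio of 0.783 and Z-score -0.24. Hoxa7, a thoracic gene of the Antennapedia class, had 982.8 and 654, a ratio of 0.690. Hoxa10, which patterns the lumbar region and the uterus, had 72.1 and 60.6, a ratio of 0.872 and Z-score -0.18 with a local SD of 0.99, at 1 probe, and its second probe was not detected. Hoxa7 came closest to the lower limit of 0.66 without reaching it, and its Z-score of -1.56 was the lowest of the 7, against a local SD of 0.36 on the log2 scale. Under the 7 scalings its log2 ratio lay between -0.59 and -0.49.

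In HoxD the detected genes were neighbours and both had lower signals on the CHIR99021 array. Hoxd8, a trunk gene expressed in the posterior axis, had 1296 and 1032 at 1 probe and 239.8 and 187.7 at the other. The ratios of these 2 probes, 0.826 and 0.812, lay close together. Hoxd9, a limb and lumbar gene, had 65.5 in control cells and 28.1 after CHIR99021, where it was not well above background, so that it was at least 2.25-fold lower. Its Z-score of -0.71, against a local SD of 1.49, kept it short of the criteria, and with normexp its log2 ratio was -0.44, a smaller difference than this limit. The Hoxd9 spot lay in row 281 of 384, in the later rows where large changes were common.

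Hoxb3, which acts in the hindbrain and the third arch, gave opposite values at its probes. At the probe with the highest mean signal it had 21.9 in control cells, where it was not well above background, and 107.7 after CHIR99021, and was at least 4.72-fold higher with a Z-score of 2.41. With normexp its log2 ratio was 1.07, below this limit, and the mean over its probes was 0.41. At a second probe it had 48.3 and 36.5, a ratio of 0.784 with both signals well above background. At the remaining probe it had 30.1 and then 16.9, not well above background, and was at least 1.10-fold lower. The higher value rested on 1 of the 3 Hoxb3 probes, the only one of them in the later rows of the array.

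Hoxc11, a gene of the hindlimb and tail, was read by the homeobox probe printed above. It had 5.05 in control cells and 257.3 after CHIR99021, and was at least 11.3-fold higher with a Z-score of 3.36, although normexp gave a log2 ratio of 2.27, below this limit. It was the only HoxC gene detected on any array, and its neighbours Hoxc10 (10.4 and 5.35) and Hoxc12 (5.29 and 5.98) were not detected. No second probe was on the array to set beside it.

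Both of these spots were uneven on the CHIR99021 array. The SD of the pixels over the mean signal was 0.380 for Hoxb3 and 0.288 for Hoxc11, where the 99th percentile of detected spots in the earlier rows, up to row 192, was 0.261. It was below that value for the other 11 detected Hox probes. The spots lay in rows 253 and 333, in the later rows, which held 92.9% of the 1277 probes changed more than 4-fold but 51.6% of the tested probes. Of the spots within 3 rows and columns, 3 of 40 around Hoxb3 and 6 of 45 around Hoxc11 had also appeared on the CHIR99021 array alone with a ratio above 4, compared with 1.91% of probes in the later rows. Such spots also lay around Hoxd3 (7 of 47) and Hoxb9 (4 of 46), which were not detected. Of the 574 probes that appeared in this way, 74.4% were uneven, compared with 1.40% of the probes measured on both arrays. With uneven spots left out, 0 of the 38 genes were higher, Hoxc11 had no usable spot, and Hoxb3, read at its second probe, had a log2 ratio of -0.35. The part of spot quality in these 2 values was not tested.

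**Figure D3:**
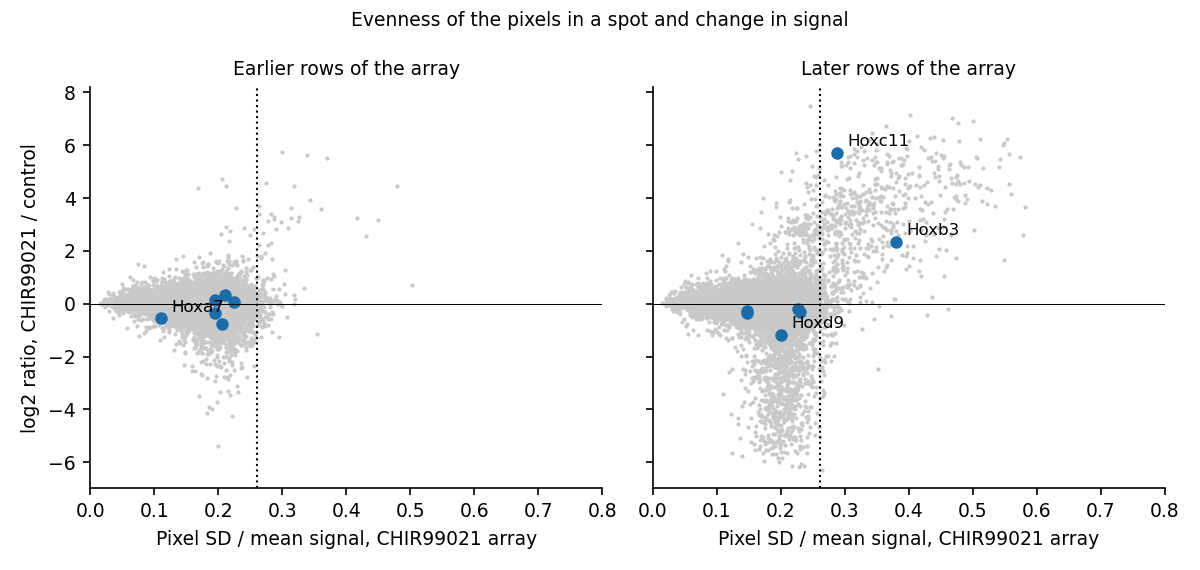
Log2 ratio of CHIR99021 over control as computed (vertical axis) against the pixel SD over the mean signal of the spot on the CHIR99021 array (horizontal axis), for the 28066 tested probes (grey) and the 13 detected Hox probes (blue), split at row 192. The dotted line is 0.261; Hoxb3 and Hoxc11 are the 2 Hox probes to its right, both in the later rows.

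Other transcripts were detected inside the clusters. Between the outermost Hox probes of the 4 clusters lay 33 further probes, of which 16 (48.5%) were detected in control cells, a share near the 47.7% of all probes. Only those detected on 1 or both arrays could be tested, and 0 of them were lower or higher by the criteria. Among all tested probes 2.72% were lower and 2.35% higher, so that a count of 0 in so few probes does not set them apart. In HoxA, spanning mm9 chr6:52112595-52209039, 7 of 10 were detected, 6 of them on the strand opposite to the Hox genes. In HoxB, spanning chr11:96057854-96228510, 5 of 12 were detected, in HoxC, spanning chr15:102759058-102867272, 1 of 2, and in HoxD, spanning chr2:74509248-74603059, 3 of 9.

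Some of the named transcripts in and around the clusters are given beside Hox genes of the same cluster. Mira, a noncoding RNA next to Hoxa7, had 733.2 and 498.4, a ratio of 0.705 beside 0.690 for Hoxa7. Gm38462, on the opposite strand between Hoxd8 and Hoxd9, had 179.2 and 118.4, a ratio of 0.685 beside 0.826 for Hoxd8. Haglr, the noncoding RNA antisense to the low-numbered end of HoxD, had 140.8 and 147, a ratio of 1.08. At the low end of HoxA, Gm15050 had 1620 and 1761, a ratio of 1.13, and the antisense RNA Hoxaas2 had 106.1 and 98.0, a ratio of 0.957, near the Hoxa2 and Hoxa3 values of 1.10 and 1.04. Hoxaas3, near Hoxa7, had 92.4 and 78.1, a ratio of 0.877, at 1 of its 2 probes, the other being undetected, and Hoxa11os had 38.6 and 42.7, a ratio of 1.15, at 1 probe and was at least 1.11-fold lower at the other (30.4 and 21.5), while Hoxa11 itself was not detected. In HoxB, Hoxb5os had 569.6 and 537.5, a ratio of 0.979, at 1 of its 2 probes, and its other probe was not detected at 4.94 and 5.50. Hoxb5 was not detected either, with 5.61 and 6.16. In HoxC, Gm4200 was detected on both arrays, with a ratio of 0.963. In HoxD, AK016928 was detected on the CHIR99021 array only, at an uneven spot, and did not meet the criteria. HOTAIR and Hottip, a noncoding RNA of HoxC and one past the Hoxa13 end of HoxA, were not detected on either array. Of the 7 noncoding RNAs named on a list of their own, 4 were detected on both arrays with a median log2 ratio of -0.05.

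**Figure D4:**
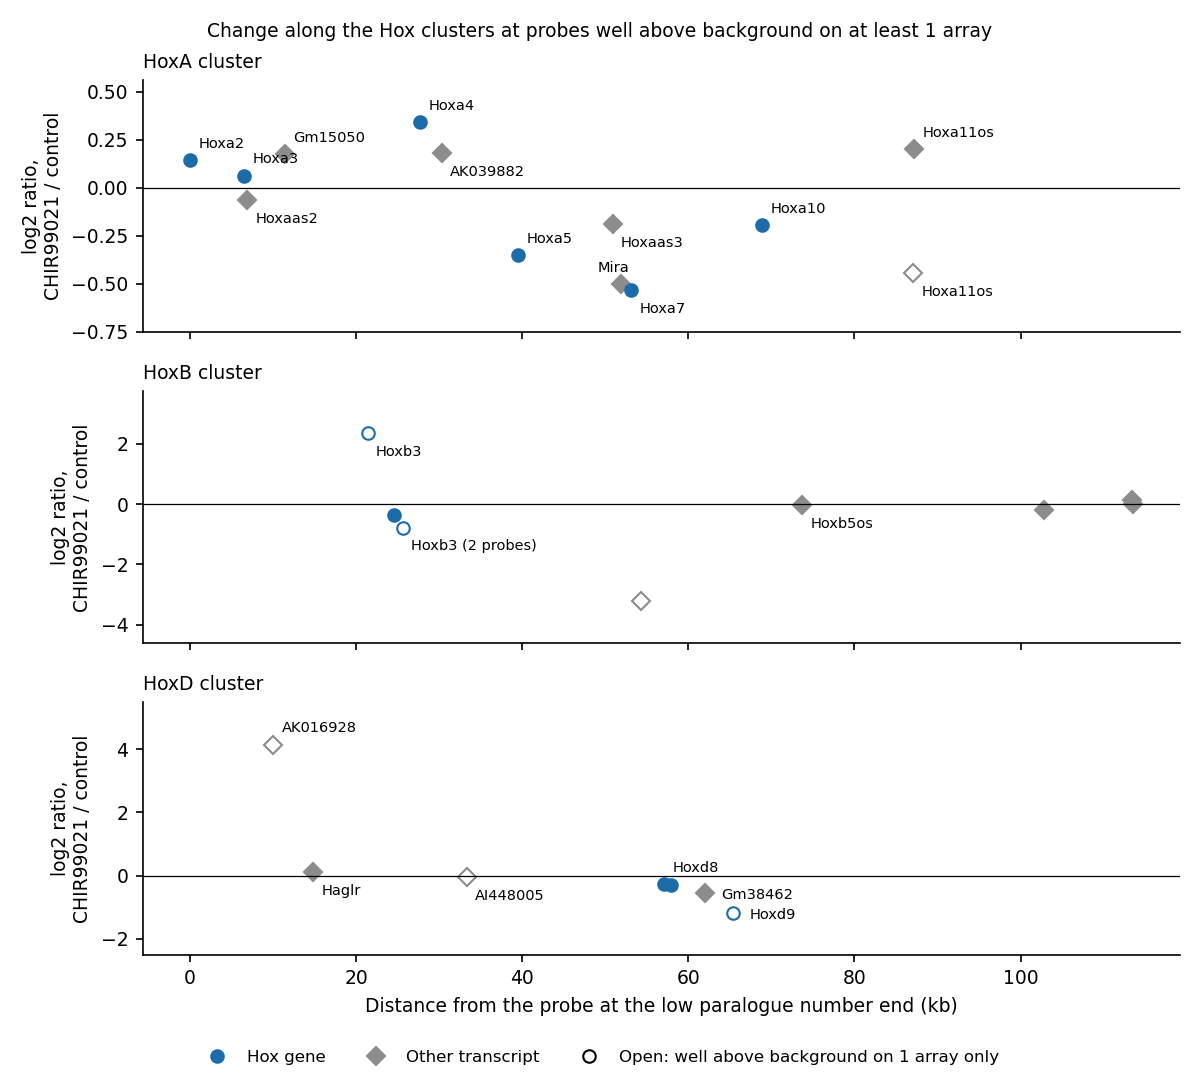
Log2 ratio of CHIR99021 over control as computed (vertical axis, a different range in each panel) against distance in kb from the probe at the low paralogue number end (horizontal axis), for Hox genes (circles) and other transcripts (diamonds) in HoxA, HoxB and HoxD. Open symbols were well above background on 1 array only; in HoxA the ratios were above 1 at Hoxa2, Hoxa3 and Hoxa4 and below 1 at Hoxa5, Hoxa7 and Hoxa10.

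The genes flanking the clusters were mostly detected. Here and for the lists that follow, a gene is given at its highest-signal probe unless another is named, and some, among them Cbx7, Ezh1, Dlx1 and Lef1, had further probes that were not detected on either array. Reading the brightest probe raises the count of genes detected, so that it is no like measure to a share over probes. Of all probes 47.7% were detected on the control and 46.1% on the CHIR99021 array, and of the tested probes 2.72% were lower and 2.35% higher. Of 14 neighbours, 11 were detected in control and 10 in treated cells, with a median log2 ratio of 0.02 over the 10 measured on both. Beside HoxA, Skap2 had a ratio of 0.848, Snx10 0.986 and Hibadh 0.962, whereas Evx1, a homeobox gene just past Hoxa13, was not detected. Beside HoxD, Evx2 had 219 and 214.2, a ratio of 1.02, at 1 of its 2 probes, the other of which was not detected on either array, while Lnp had a ratio of 1.17, Atp5g3 1.16 and Mtx2 1.01. Past the high-numbered end of HoxC, Calcoco1 was lower, with 346.8 and 100.5, a ratio of 0.301 and Z-score -3.43, and its second probe gave 0.373. Atf7, on the same side, had a ratio of 1.24 at its highest-signal probe, while another of its probes, uneven on the control array, had 216.2 and 13.1 and met the criteria as at least 7.93-fold lower. Smug1, past the other end of HoxC, had a ratio of 1.07, and Skap1 beside HoxB, at 52.4 and 18.5, did not meet the criteria.

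Partners of the Hox proteins were present. Of 9 TALE homeodomain cofactors, which bind DNA together with Hox proteins, 7 were detected on both arrays and 0 met the criteria at the highest-signal probe, with a median log2 ratio of -0.18. At the highest-signal probe Pbx2 had a ratio of 0.810, Pbx3 1.34, Meis1 0.878, Meis2 1.27, Meis3 0.879 and Pknox1 0.969. Other probes of 3 of these genes met the criteria. Pbx3 had 264 and 35.5 at 1 probe, a ratio of 0.139, Meis3 had 174.7 and 60.7 at 1 probe, a ratio of 0.360, and Meis2 had 107.1 and 519.9 at an uneven spot, a ratio of 5.04. A further Meis2 probe was at least 2.02-fold higher without meeting them. Pbx4 and Pknox2 were not detected.

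Of 12 genes that act upstream of the clusters, 8 were detected on the control array, beside 47.7% of all probes. The caudal genes Cdx1, Cdx2 and Cdx4, which Wnt signals induce to open the trunk part of the clusters, were not detected on either array. The retinoic acid receptors Rara and Rarg were detected with ratios of 1.01 and 0.825, and Cyp26b1, which breaks retinoic acid down, was lower, with 2090 and 1234, a ratio of 0.613 and Z-score -2.44. Aldh1a2, which makes retinoic acid, had 44.8 on the control array at an uneven spot and 5.61, not well above background, on the CHIR99021 array.

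All 15 Polycomb genes and all 9 Trithorax genes on the lists were detected on both arrays at the highest-signal probe. Of all probes 47.7% were detected on the control and 46.1% on the CHIR99021 array. Of the Polycomb genes 2 were lower and 0 higher, beside 2.72% and 2.35% of all tested probes, with a median log2 ratio of 0.03. The 2 lower genes were Cbx7, a reader of the repressive mark, with a ratio of 0.349, and Ezh1, 1 of the enzymes that write it, with 0.523. The enzyme Ezh2 and its partners Eed and Suz12 had ratios of 1.13, 1.22 and 1.28. Of the Trithorax genes 0 met the criteria, and Kmt2a, the methyltransferase that maintains Hox expression, had a ratio of 0.951.

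Genes of the first arch and the tooth were detected alongside the Hox genes. All 13 on the list were detected in control and 12 in treated cells at the highest-signal probe, beside 47.7% and 46.1% of all probes. Of these genes 2 were lower and 0 higher, Lhx8 with a ratio of 0.539 (0.855 at its second probe) and Dlx1 with 0.499. Among all tested probes 2.72% were lower and 2.35% higher. Lhx8, Lhx6 and Pitx1 had the highest signals, with 2845, 1751 and 1698 on the control array. Hoxa3, Hoxa7 and Hoxd8, genes of regions behind the first arch, were measured on the same arrays as these first arch genes, and the arrays do not tell whether in the same cells. As a check of the treatment, the β-catenin target Lef1 was higher, with 239 and 690.5, a ratio of 3.0, and Nkd1 met the criteria at an uneven spot. Tcf7, with a ratio of 1.55 and Z-score 1.45, and Axin2, detected on the CHIR99021 array only with a Z-score of 0.91, did not meet the criteria, and Sp5 was not detected.

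Promoters were looked at for the genes in the RefSeq promoter table (GRCm38), which held 24 promoters of 22 of the 38 genes. In the 250 bases before the start, the letters CTTTGA, the core of the motif of the β-catenin partners TCF and LEF, were searched on both strands. They occurred in 3 of the 24 promoters (12.5%) and in 13.8% of all 32851 promoters of the table. The CpG count had a median of 12.5 per promoter for Hox genes and 6 for all. Hoxd8 and Hoxa7, the Hox genes with a lower signal after CHIR99021 at bright probes, differed in this window, in which the capitals mark CTTTGA.
Hoxd8, GRCm38 chr2:74704365-74704614, plus strand: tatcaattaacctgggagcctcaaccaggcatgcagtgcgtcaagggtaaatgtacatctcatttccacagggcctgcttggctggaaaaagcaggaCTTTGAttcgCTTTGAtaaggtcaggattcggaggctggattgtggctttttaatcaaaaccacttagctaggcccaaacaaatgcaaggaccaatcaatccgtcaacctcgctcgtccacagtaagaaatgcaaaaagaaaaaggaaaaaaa
Hoxa7, GRCm38 chr6:52218574-52218823, minus strand: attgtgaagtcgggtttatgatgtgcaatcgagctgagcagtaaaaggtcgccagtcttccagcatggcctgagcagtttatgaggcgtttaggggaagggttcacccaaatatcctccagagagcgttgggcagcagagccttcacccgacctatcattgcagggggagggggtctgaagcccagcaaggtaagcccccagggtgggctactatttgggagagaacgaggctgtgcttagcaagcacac
The Hoxd8 window held the motif 2 times and the Hoxa7 window 0 times, with 6 and 7 CpG. A match is a run of letters and does not show binding. Hoxa10 held it 2 times in 1 of its 2 promoters, and the other promoter with the motif was that of the undetected Hoxd12.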

How the data were processed

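Total RNA was labelled with Cy3 and hybridised to Agilent mouse arrays. The deposited values were spot intensities, background-subtracted by Feature Extraction (10.7.1.1 in the file header, 9.5.1.1 in the submitters' processing notes) with mm9 probe positions, and the authors' own table of normalized intensities. The methods name a human array. Each array held 59305 spots of 56605 probes besides controls, of which 29562 (49.8%) and 28636 (48.3%) were well above background and 0 saturated. The number of arrays, 1 for each condition, limits the precision.

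The 75th percentile of the array was subtracted from each intensity on the log2 scale, spots flagged as outliers were left out, spots of a probe were averaged, and each gene was read at its probe with the highest mean signal. Probes detected on 1 or both arrays entered the comparison (28066). A ratio to a signal not well above background was given as a limit against the higher of that signal and the lowest detected signal of the array, while the criteria used the ratio as computed. Scripts (Python 3.11.15, pandas 2.3.3, limma 3.58.1 for normexp) were tested on simulated data. The accessions of 45 of the 51 Hox probes matched RefSeq, all with the same symbol. All 38 genes were named by rule, with detected cofactors and neighbours and, for the other lists, the highest signals and genes meeting the criteria. The genes and lists were chosen with earlier results of these data known. Some named genes and a probe sequence are not reported here.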

Additional observations from a re-analysis of the deposited data

How the results depend on the processing

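No paired analysis was possible because there was a single array of either kind. The count of 0 Hox genes lower after CHIR99021 held under every alternative for scaling, filter and spots, and became 1 (Hoxd9) under the ratio criterion alone. The count of 2 higher held under 5 other scalings and the other Z-score settings, but was 1 with normexp, 1 with the mean over the probes of a gene, 1 with Hoxb3 read at its next probe (chosen after seeing the data), and 0 for probes detected on both arrays, without uneven spots or in the earlier rows alone. Hoxb3, given in the report as at least 4.72-fold higher, had a log2 ratio of -0.35 without uneven spots and -0.35 in the earlier rows alone, since both leave out the probe with the highest mean signal, and 1.07 with normexp and 0.41 with the mean over probes.

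Genes detected numbered 8 on the control and 9 on the CHIR99021 array, 5 and 5 in the earlier rows alone, which leave out 25 of the 51 probes, and 19 and 18 with the looser call of a positive and significant signal. They numbered 9 and 8 without uneven spots, 9 and 9 with Hoxb3 at its next probe, and 6 and 6 where all probes of a gene had to pass. Which array had the higher count was therefore not stable. The median log2 ratio of -0.20 was -0.16 with quantile normalization, median scaling or the authors' table, -0.25 without scaling or with the 75th percentile over probes detected on both arrays, and -0.07 with normexp. It was -0.24 without uneven spots, with the mean over probes or with Hoxb3 at its next probe, 0.06 in the earlier rows alone, -0.07 over genes detected on at least 1 array and 0.19 with no filter, so that its sign depended on the genes included. The cause of these shifts was not tested. Of 84 values of single genes under alternatives, 34 stayed within 0.03, 48 moved by more in the same direction and 2 reversed. Dim signals limit what can be measured: 28 of 38 genes were not well above background on either array.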
